A study of Rattus norvegicus with 6 samples.

Results

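Genes of bone morphogenetic protein (BMP) and transforming growth factor beta (TGF-beta) signalling were read in rat bone cells that had attached to osteopontin or to prothrombin. They are the 59 genes, of 14506 with a row of their own, whose symbol in the array annotation begins with Bmp (Bmp1 left out), Tgfb, Acvr, Inhb, Fstl, or Gdf or Smad and a digit, or is Fst, Nog, Chrd, Grem1, Bambi, Eng or one of Id1 to Id4. Each had 1 row. The rule matches 67 protein-coding genes in the GRCr8 gene table, and 8 of them, among them Tgfbr2, Bmper, Gdf5 and Gdf7, were not analysed here. The cells were taken from the long bones of newborn Sprague Dawley rats (age 2 to 5 days), with no genetic change or drug named, and were left to adhere in plates coated with prothrombin (PT, the precursor of thrombin, from mouse) or osteopontin (OPN, a phosphoprotein of bone matrix, from bovine milk). A group is therefore whatever attached to 1 protein, not a sorted cell type. Total RNA was hybridised to Rat Gene 1.0 ST arrays of Affymetrix, 3 for the PT coating (replicates 1, 2 and 4) and 3 for the OPN coating (replicates 2, 3 and 4). The records give every sample the same amount of RNA (300 ng) and the same BSA, HEPES and pH.

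Ligands of this superfamily are secreted dimers that assemble a complex of type I and type II receptor kinases on the target cell. BMP receptors then phosphorylate SMAD1, SMAD5 and SMAD9, and TGF-beta and activin receptors phosphorylate SMAD2 and SMAD3. Both sets enter the nucleus with SMAD4, while SMAD6 and SMAD7 inhibit the pathway and are induced by it. Antagonists such as noggin, chordin, gremlin and follistatin bind the ligands outside the cell. In bone, BMPs drive osteoblast differentiation, TGF-beta is stored in the matrix and released during resorption, and the Id genes, which encode inhibitors of helix-loop-helix transcription factors, are well-known BMP targets.

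Signals are linear PLIER values per array, and differences are OPN minus PT of log2(signal + 16), so that folds understate the change of rows with low signal. Genes are called, and said to rise or fall, at an adjusted p below 0.05 in limma's test over all 29215 rows with Benjamini-Hochberg adjustment. The array medians lay between 207.8 and 231.4 units. Across rows, arrays of the same coating correlated at 0.988 to 0.992 and arrays of different coatings at 0.974 to 0.979. Whether each array stands for its own animals or cell preparation is not said by the labels. The p-values thus reflect the spread among these 6 samples alone, and that spread may be technical. Detection calls were not used, and precision is limited by the small number of arrays.

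On OPN, 19 of the 59 genes rose and 0 fell, led by the secreted glycoprotein gene Fstl1, the BMP antagonist gene Grem1 and the ligand gene Bmp3. The risers also included the BMP receptor genes Bmpr2, Bmpr1a and Acvr1 and the SMAD genes Smad1, Smad5, Smad4 and Smad6. Of all rows, 5.05% were called higher and 0.770% lower, and of the 14506 named genes, 1 row each, 7.62% were higher and 1.12% lower. The risers were 32.2% of the 59. With equal array medians 15 rose and 1, Bmp2k, fell, against 4.08% and 1.89% of all rows, and with quantile normalisation 18 rose and Bmp2k fell, against 4.66% and 2.55%. Among the genes without a call, 2 lay lower at an unadjusted p below 0.05, Gdf15 and Bmp2k, and both were called lower by limma with a trended, robust variance. Higher at that level lay 25 of the 59, the 19 risers among them. The median log2 difference was 0.15 over the 59, 0.03 over all rows and 0.04 over all named genes. With equal array medians it was 0.08 over the 59 and -0.04 over all rows, and with quantile normalisation 0.09 and -0.03. At least a 2-fold difference was reached by 3 of the 59 genes, all of them risers, against 0.986% of all rows, named or not, called higher by that much. A further 7 of the risers lay between 1.5-fold and 2-fold and 9 below 1.5-fold. The OPN arrays all lay above the PT arrays in 26 of the 59 genes and all below them in 3, where 16.3% and 7.40% of all rows, named or not, did so. Among the 19 risers the highest array was OPN replicate 3 in 16, and it was the highest in 57.6% of all rows called higher. Without that array 12 of the genes were called.

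Markers of several cell types, listed with earlier results of these data known, moved between the same arrays, none of them a member of the 59. All 12 osteoblast markers rose, and their summed signal was 11213 to 12185 on PT and 57183 to 63833 on OPN. Of 10 stromal fibroblast markers 9 rose (1980 to 2049 on PT, 6394 to 6878 on OPN). Of 9 osteoclast markers 7 rose (11162 to 13392 and 28744 to 32270), of 10 endothelial markers 7 (2058 to 2186 and 3112 to 3285), and of 5 platelet markers 5 (2001 to 2095 and 3467 to 3761). Of 7 markers of mural and smooth muscle cells 2 rose and of 9 chondrocyte markers 1, while 6 of 11 macrophage markers fell (12678 to 13197 on PT, 9000 to 9682 on OPN). Of 8 granulocyte and 6 erythroid markers 0 were called in limma's test, and of 6 lymphocyte markers 1 fell. None of these marker rows was at 0 on any array. Their part in the differences of the signalling genes was not tested. In such bulk samples a change in the number of cells of a type and a change in RNA per cell cannot be told apart.

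**Figure D1:**
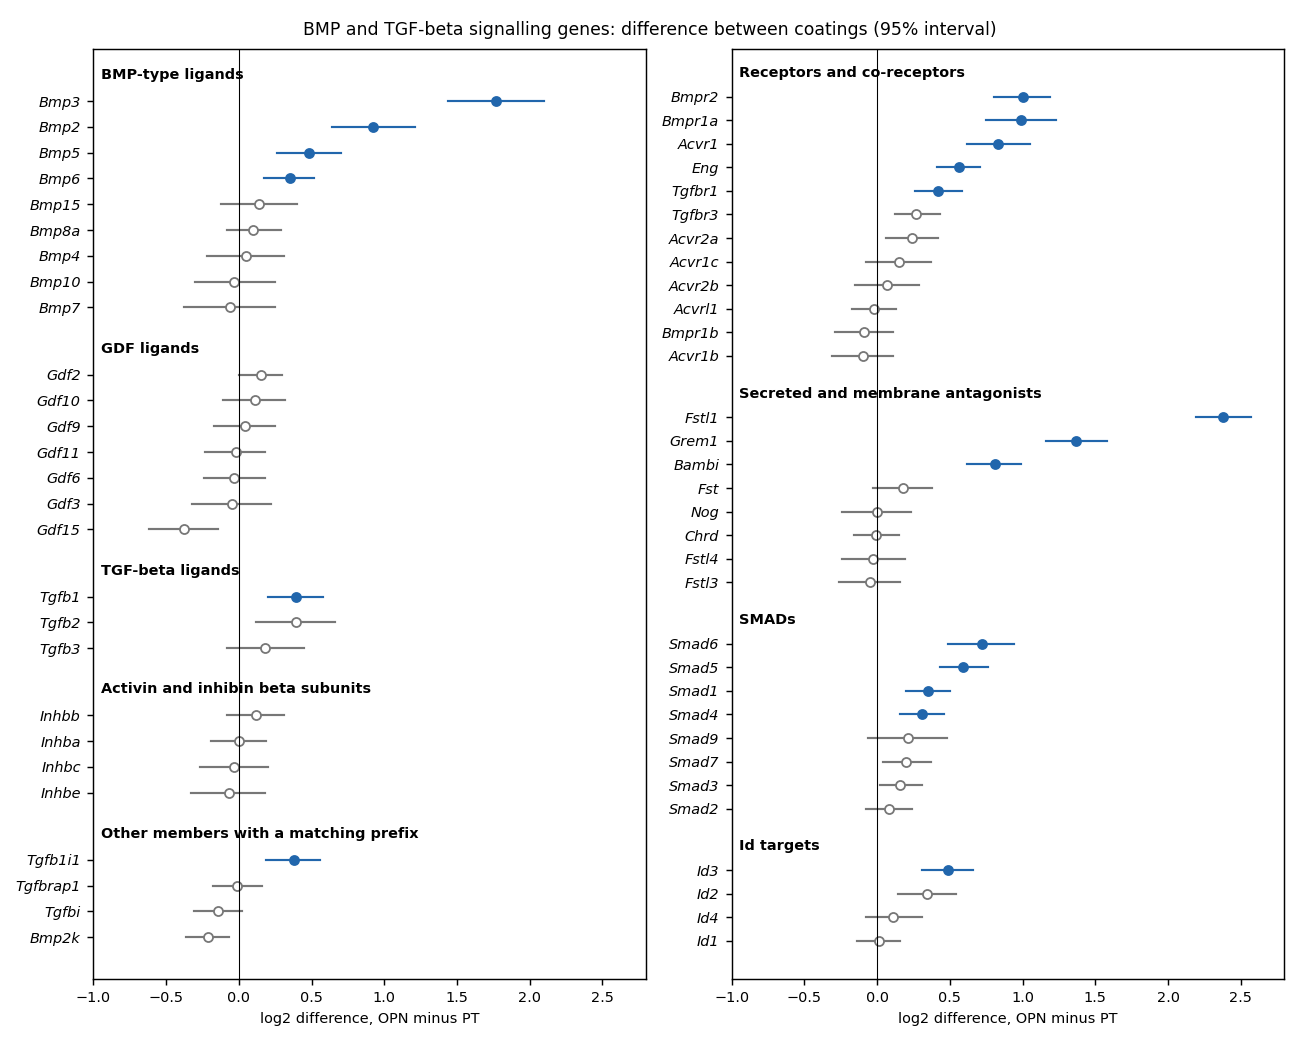
Log2 difference between OPN and PT (x axis, log2 of signal + 16) of the 59 genes by role, with limma's 95% interval as a line and genes of adjusted p below 0.05 filled in blue. The filled genes all lie right of 0, from 0.31 for Smad4 to 2.38 for Fstl1, while no gene of the activin or GDF ligands is filled.

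Extracellular and membrane antagonists, a group that takes in the follistatin-like (Fstl) genes by name, gave the widest range, from -0.05 to 2.38. Of 8, Fstl1, Grem1 and Bambi rose, and the other 5 were not called. The stretches before the start of the 3 that rose are shown first, because these are the genes of this group that were called. They are the 250 bases upstream of the RefSeq gene start in GRCr8, 5′ to 3′ on the gene's strand, at chr11:76454054-76454303 (minus strand) for Fstl1, chr3:120978320-120978569 (minus strand) for Grem1 and chr17:58821004-58821253 (minus strand) for Bambi. Capitals mark GGCGCC, the letters of a GC-rich SMAD site.
Fstl1: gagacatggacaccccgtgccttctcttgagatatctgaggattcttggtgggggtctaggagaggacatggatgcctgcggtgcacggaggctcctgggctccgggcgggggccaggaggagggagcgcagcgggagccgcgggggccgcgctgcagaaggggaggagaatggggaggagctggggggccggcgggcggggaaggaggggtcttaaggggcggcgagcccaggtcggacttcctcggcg
Grem1: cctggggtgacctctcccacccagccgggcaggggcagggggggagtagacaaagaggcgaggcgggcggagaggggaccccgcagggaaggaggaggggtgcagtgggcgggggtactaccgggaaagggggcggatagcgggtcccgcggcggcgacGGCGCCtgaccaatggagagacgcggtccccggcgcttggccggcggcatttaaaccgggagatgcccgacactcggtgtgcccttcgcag
Bambi: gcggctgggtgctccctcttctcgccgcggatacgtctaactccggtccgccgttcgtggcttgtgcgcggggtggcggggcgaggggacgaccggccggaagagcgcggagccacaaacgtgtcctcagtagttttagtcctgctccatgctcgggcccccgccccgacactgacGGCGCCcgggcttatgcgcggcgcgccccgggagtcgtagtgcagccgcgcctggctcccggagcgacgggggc
GGCGCC was found once before Grem1 and once before Bambi, and not before Fstl1. CAGAC, the letters of the SMAD box, and CACGTG, an E-box, were searched on both strands as well and are in none of the 3 windows.

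Such windows were at hand for 50 of the 59 genes, 16 of them risers. GGCGCC stood in 3 of the 16 and in 11 of the 34 genes without a call, against 8.7% of 33469 promoter windows of this length. CAGAC stood in 1 of the 16, Eng, and in 12 of the 34, against 42.9% of all windows. CACGTG stood in 0 of the 16 and 3 of the 34, against 5.6%. These counts describe letters within 250 bases and say nothing of binding.

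Fstl1, which encodes a secreted glycoprotein of mesenchymal cells that is related to follistatin and SPARC, had signals of 155, 146 and 131 on PT replicates 1, 2 and 4. On OPN replicates 2, 3 and 4 it had 791, 876 and 792. The coatings were far apart, at 144 ± 12.1 and 820 ± 48.8 (SD, n = 3), a 5.22-fold difference (log2 2.38, SE 0.083, adjusted p = 9.02e-07).

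Grem1, the gene of gremlin, which binds BMP2 and BMP4 and keeps them from their receptors, had signals of 112, 99.8 and 123 on PT and 319, 336 and 288 on OPN. It was 2.59-fold higher on OPN, with no overlap between the coatings (log2 1.37, SE 0.092, adjusted p = 3.99e-05). Bambi encodes a membrane decoy that resembles a type I receptor without a kinase. Its signals were 241, 272 and 246 on PT and 443, 490 and 433 on OPN, a 1.75-fold difference (adjusted p = 0.000454), again without overlap. All 3 genes kept their calls under each of the 13 alternative settings. Grem1 passed the filter on dim rows, which was among these settings, only through its OPN arrays.

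The other 5 genes of the antagonist group were not called. Noggin's gene Nog had signals of 164, 136 and 128 on PT and 130, 138 and 157 on OPN, with a 95% interval of the log2 difference from -0.24 to 0.23. For Chrd, the chordin gene, the interval ran from -0.16 to 0.15. The activin-binding follistatin gene Fst lay at 0.18 (interval -0.03 to 0.38, adjusted p = 0.356). Fstl3 (-0.05) and Fstl4 (-0.03) lay near 0. Signals of these 5 genes overlapped between the coatings. Of the stromal fibroblast markers, 9 of 10 rose on the same arrays, with a median log2 difference of 1.42. All 12 osteoblast markers rose as well, with a median of 2.27. So did 7 of 9 osteoclast markers (median 1.74), 7 of 10 endothelial markers (0.60) and 5 of 5 platelet markers (0.74). Macrophage markers fell in 6 of 11 cases (-0.53). Which cells the differences of Fstl1, Grem1 and Bambi come from was not tested.

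**Figure D2:**
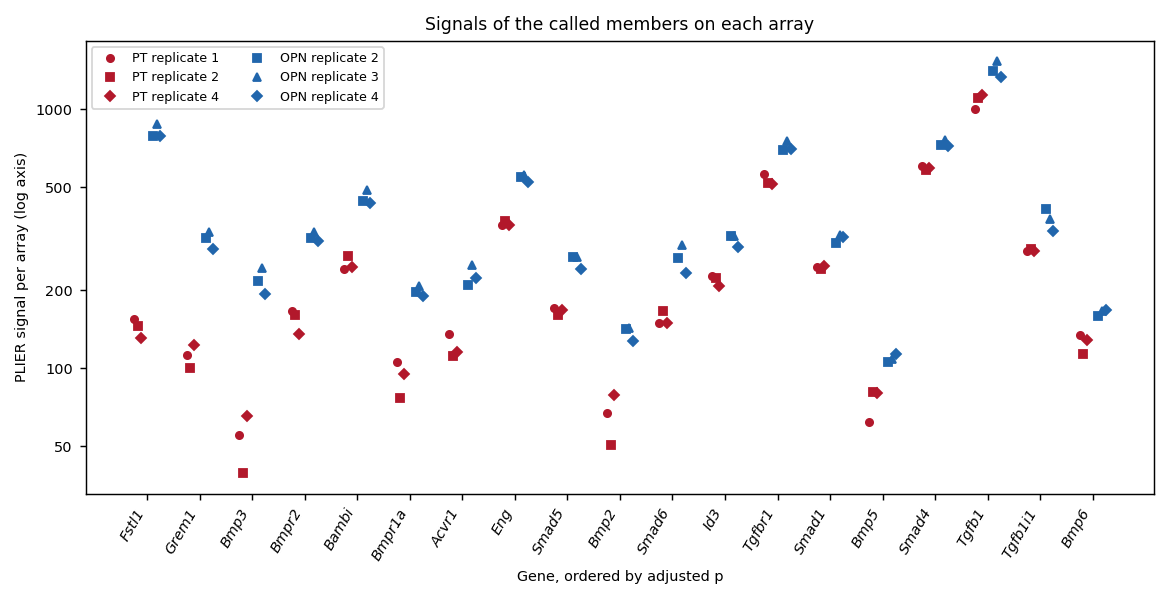
PLIER signal (y axis, log scale) of the 19 genes that rose on OPN, 1 point per array, with PT arrays in red and OPN arrays in blue. In each of the 19 the 3 OPN points lie above the 3 PT points, with the widest gap for Fstl1 (131 to 155 on PT, 791 to 876 on OPN).

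Among 9 BMP ligand genes, 4 rose, 0 fell and the median difference was 0.14 (log2). Bmp3 encodes an abundant bone-matrix BMP that opposes the osteogenic ones. Its signals were 55.3, 39.4 and 65.5 on PT and 218, 245 and 194 on OPN. It was 3.42-fold higher on OPN (log2 1.77, SE 0.14, adjusted p = 0.000128), and the highest PT array stayed far below the lowest OPN array.

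Bmp2, the gene of a strongly osteogenic ligand, had signals of 67.1, 50.6 and 78.7 on PT and 142, 143 and 127 on OPN, a 1.90-fold difference (adjusted p = 0.00265). Bmp5, whose product shapes the growing skeleton, had 62.0, 80.6 and 80.4 on PT and 106, 109 and 113 on OPN (log2 0.48, adjusted p = 0.0213). Bmp6, whose product acts in bone and in hepatic control of iron, had 134, 114 and 129 on PT and 159, 166 and 168 on OPN (log2 0.35, adjusted p = 0.0346). The last pair were the less firm calls. Bmp5 was not called without OPN replicate 2, 3 or 4 (adjusted p = 0.0633, 0.0826 and 0.0815) or with either scaling of the arrays. Bmp6 was not called with equal array medians, or without OPN replicate 2, 3 or 4 or PT replicate 2 or 4 (adjusted p from 0.0696 to 0.133 where 1 array was left out).

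The other 5 BMP genes were Bmp4, Bmp7, Bmp8a, Bmp10 and Bmp15, whose differences spanned -0.06 to 0.14. Bmp4, which with Bmp2 is the BMP most studied in osteoblasts, had 201, 157 and 168 on PT and 194, 195 and 155 on OPN. Its interval ran from -0.22 to 0.31, so a difference of the size of Bmp2 (log2 0.92) lay outside it. Bmp7, a ligand gene of kidney and bone, had 288, 202 and 256 on PT and 266, 201 and 244 on OPN, with PT replicate 2 and OPN replicate 3 the lowest arrays of their coatings.

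Of the 3 TGF-beta ligand genes, Tgfb1, the isoform that bone matrix stores in quantity, rose. Its signals were 1005, 1107 and 1140 on PT and 1402, 1534 and 1333 on OPN, a 1.31-fold difference (adjusted p = 0.0299). The call was lost without OPN replicate 2 or 3 or PT replicate 1 or 2 (adjusted p from 0.0704 to 0.129), and with equal array medians (adjusted p = 0.0725). Tgfb2 had a difference of the same size, 0.39 (SE 0.12), with signals of 144, 105 and 124 on PT and 186, 151 and 164 on OPN. It did not pass (adjusted p = 0.107), except without PT replicate 1 (adjusted p = 0.0494), with rows of low signal left out or with a trended, robust variance. Its PT mean of 124 lay below the limit for low signal, 134, which Tgfb2 passed only through its OPN arrays. Tgfb3 lay at 0.18 (interval -0.08 to 0.45).

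Ligand genes of the GDF and activin branches gave no call in either direction. Of the 7 GDF genes, Gdf15, a cytokine gene induced by cell stress and made by macrophages among other cells, lay lowest. Its signals were 327, 431 and 376 on PT and 266, 284 and 305 on OPN, a log2 difference of -0.38 (SE 0.11) without overlap. It missed the threshold (adjusted p = 0.0831) but passed without PT replicate 1 (adjusted p = 0.0331). Gdf2, which encodes the endothelial ligand BMP9, lay at 0.15 and the other 5 between -0.05 and 0.11. Of the 4 activin subunit genes, Inhba had 155, 133 and 164 on PT and 152, 146 and 153 on OPN (interval -0.19 to 0.19). The range over the 4 was -0.07 to 0.12, with overlap in each.

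Receptor genes rose in 5 of 12 cases and fell in 0, with a median of 0.26. The 3 largest differences belonged to receptors that bind BMPs. Bmpr2, the type II receptor gene of the BMP branch, had 166, 161 and 136 on PT and 319, 337 and 311 on OPN. It was 1.99-fold higher on OPN (log2 1.00, SE 0.086, adjusted p = 0.000195). Bmpr1a, a type I receptor gene needed in osteoblasts and chondrocytes, had 106, 76.4 and 94.8 on PT and 197, 208 and 190 on OPN, also a 1.99-fold difference (adjusted p = 0.000689). Acvr1 encodes ALK2, the type I receptor that is mutated in fibrodysplasia ossificans progressiva. Its signals were 135, 111 and 116 on PT and 209, 250 and 223 on OPN, a 1.78-fold difference (adjusted p = 0.00101). In these 3 genes the coatings did not overlap, and the calls held under every one of the 13 alternatives. Bmpr1a and Acvr1 passed the filter on dim rows only through their OPN arrays.

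The other type I receptor gene of this branch, Bmpr1b, which acts in cartilage condensation, had 95.4, 98 and 93.6 on PT and 99.3, 78.4 and 90.1 on OPN. Its interval, -0.29 to 0.11, lay below that of Bmpr1a, 0.75 to 1.23. The means of Bmpr1b, 95.7 on PT and 89.3 on OPN, were both below the lower quartile of all row means, 134. Without detection calls, its low expression cannot be separated from background, so its lack of a difference says little. Acvrl1, the ALK1 gene of endothelial cells, lay at -0.02 (interval -0.17 to 0.13).

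Eng, which encodes endoglin, a co-receptor of endothelial cells, stromal cells and activated macrophages, had 359, 371 and 359 on PT and 547, 558 and 525 on OPN. The difference was 1.48-fold (adjusted p = 0.00118). Endothelial markers rose in 7 of 10 cases on the same arrays, with a median of 0.60, and stromal fibroblast markers in 9 of 10, with a median of 1.42. Macrophage markers fell in 6 of 11 cases, with a median of -0.53. Which cells the difference of Eng comes from was not tested. Tgfbr1, the type I TGF-beta receptor gene, had 563, 521 and 515 on PT and 699, 754 and 701 on OPN, a 1.34-fold difference (adjusted p = 0.00967). Without OPN replicate 3 it was not called (adjusted p = 0.0573), nor was it with a block on the replicate number (adjusted p = 0.138). Tgfbr3, the betaglycan gene, stood just outside the threshold at 0.27 (adjusted p = 0.0584), with 286, 262 and 271 on PT below 343, 331 and 325 on OPN. The activin receptor genes Acvr2a (0.24), Acvr1c (0.15), Acvr2b (0.07) and Acvr1b (-0.10) were not called.

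SMAD genes rose in 4 of 8 cases and fell in 0. All 8 differences were above 0, with a median of 0.26, and 41 of the 59 genes lay above 0. The share of all rows above 0 was not computed. With equal array medians the median of the 59 fell from 0.15 to 0.08. Of the BMP-branch genes, Smad5 had 171, 161 and 168 on PT and 268, 269 and 242 on OPN, a 1.51-fold difference (adjusted p = 0.00145). Smad1 had 247, 242 and 249 on PT and 306, 328 and 320 on OPN (log2 0.35, adjusted p = 0.0154). Its call was lost without OPN replicate 3, OPN replicate 4 or PT replicate 2 (adjusted p = 0.0856, 0.0576 and 0.0560). Smad9, the third of that branch, had 191, 146 and 148 on PT and 192, 210 and 165 on OPN, where PT replicate 1 stood among the OPN arrays (interval -0.06 to 0.48).

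The receptor-regulated SMAD genes of the TGF-beta and activin branch were not called. Smad2 lay at 0.08 (interval -0.08 to 0.24) and Smad3 at 0.16 (interval 0.02 to 0.31), with adjusted p = 0.653 and 0.222. Smad4, which serves both branches, had 602, 581 and 595 on PT and 726, 764 and 724 on OPN, a 1.24-fold difference with adjusted p = 0.0281. Leaving out any 1 of the 6 arrays ended its call (adjusted p from 0.0584 to 0.135), as did equal array medians (adjusted p = 0.0690).

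Of the inhibitory pair, Smad6, which mainly restrains BMP signals, had 150, 167 and 149 on PT and 267, 299 and 233 on OPN. It was 1.64-fold higher on OPN (log2 0.72, SE 0.098, adjusted p = 0.00281), and its OPN arrays spread more than its PT arrays. Smad7, which restrains both branches, had 280, 293 and 272 on PT and 347, 320 and 314 on OPN, without overlap and without a call (log2 0.20, adjusted p = 0.173).

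**Figure D3:**
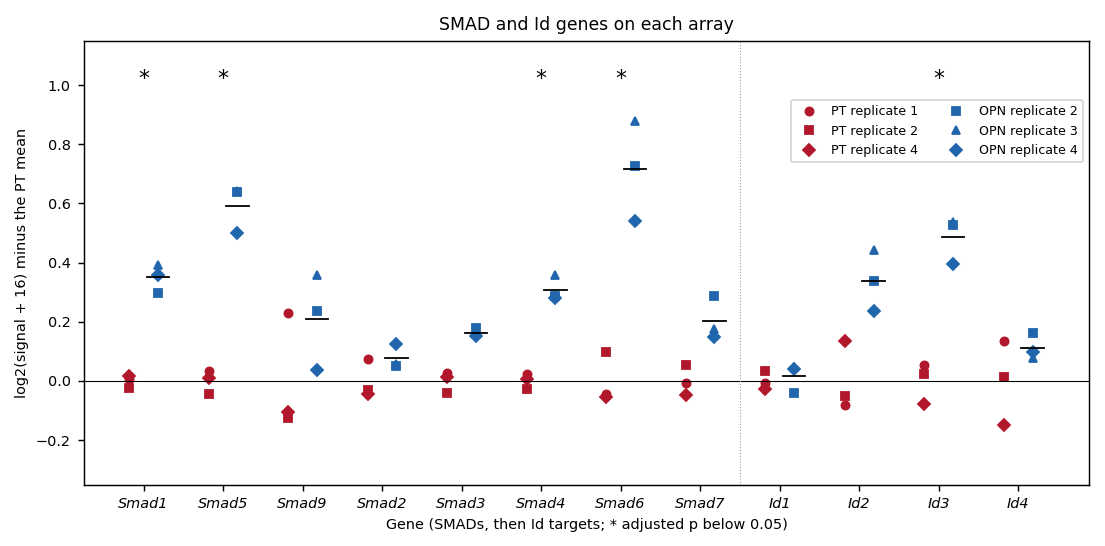
log2(signal + 16) of each array minus the gene's PT mean (y axis) for 8 SMAD genes and 4 Id genes, with PT arrays in red, OPN arrays in blue, the OPN mean as a black bar and an asterisk for adjusted p below 0.05. Smad6, Smad5 and Id3 have the highest bars, at 0.72, 0.59 and 0.49, while the 6 arrays of Id1 lie together around 0.

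The Id genes did not move as 1 group. Id3 had 228, 223 and 207 on PT and 323, 325 and 293 on OPN, a 1.40-fold difference without overlap (log2 0.49, SE 0.075, adjusted p = 0.00552). Id2 had 262, 268 and 307 on PT and 356, 384 and 331 on OPN. It too did not overlap but missed the threshold (log2 0.34, SE 0.088, adjusted p = 0.0645), which it passed without PT replicate 4 (adjusted p = 0.0449). Id4 had 298, 273 and 242 on PT and 304, 286 and 290 on OPN (log2 0.11, interval -0.08 to 0.31). Id1 had 196, 202 and 193 on PT and 191, 204 and 203 on OPN (log2 0.01, adjusted p = 0.956), and its sign turned with either scaling of the arrays. The interval of Id1, -0.14 to 0.16, did not reach that of Id3, 0.31 to 0.66. None of the 3 motifs searched was found in the 250 bases before any of the 4 Id genes.

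A further 4 genes share a prefix with the pathway and have other roles. Tgfb1i1, which encodes the focal adhesion protein Hic-5, rose from 283, 288 and 285 on PT to 412, 377 and 339 on OPN (1.30-fold, adjusted p = 0.0331). Its call was lost without OPN replicate 2 or 3 or any 1 PT array (adjusted p from 0.0842 to 0.133). Bmp2k, a kinase gene first found as induced by BMP2, had 1132, 1067 and 1085 on PT and 926, 945 and 952 on OPN. At -0.21 it did not pass (adjusted p = 0.113), but it was called lower with equal array medians or quantile normalisation (adjusted p = 0.0390 and 0.0429). Tgfbi, a matrix protein gene named for its induction by TGF-beta, lay at -0.14 (interval -0.31 to 0.02), with 527, 519 and 555 on PT above 508, 481 and 456 on OPN. Tgfbrap1, the gene of a receptor-associated protein, lay at -0.01.

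The 40 genes without a call lay between -0.38 and 0.39. Of these Tgfbr3, Id2 and Gdf15 passed with an offset of 64, with dim rows left out and with a trended, robust variance. In 37 of the 40 the 95% interval lay within 0.5 of 0 on the log2 scale. By the mean over all 6 arrays, 52 of the 59 genes lay at or above the lower quartile of all row means, 134. Above the median row mean lay 28 of the 59 and 10 of the 19 risers. Bmp2 and Bmp5 were the risers below that quartile. On PT alone the means of Bmp3 (53.4), Bmpr1a (92.6), Grem1 (112), Acvr1 (121) and Bmp6 (126) were below 134 as well.

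**Figure D4:**
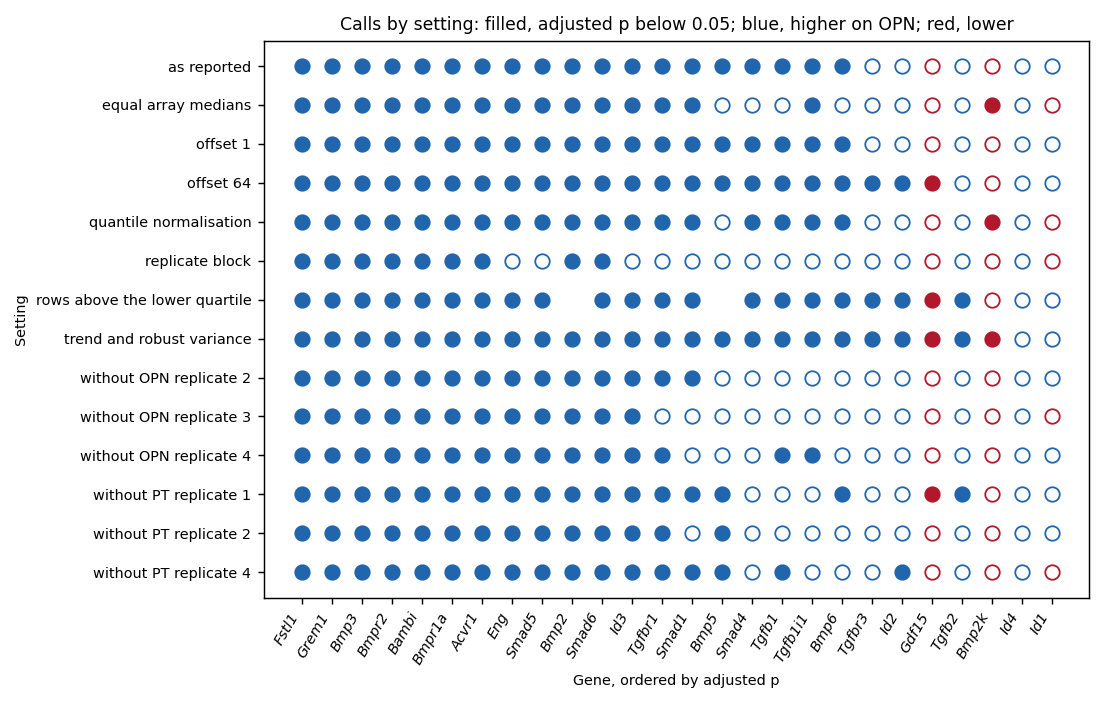
Calls of 26 genes (x axis, ordered by adjusted p) under the reported setting and 13 alternatives (y axis), filled where adjusted p was below 0.05, blue where higher on OPN and red where lower. The 7 genes from Fstl1 to Acvr1 are filled in every row, whereas Smad4 is open in each row that leaves out 1 array; Bmp2 and Bmp5 have no circle where rows of low signal were left out.

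Genes of the pathway outside the naming rule were read from 7 lists with 80 measured genes. The lists were chosen with earlier results of these data known, so their counts are descriptive. Of these 28 rose and 0 fell in limma's test, where 7.62% of all named genes rose and 1.12% fell. A further 2 lay lower at an unadjusted p below 0.05, and others without a call lay higher at that level, such as Pmepa1 (0.31) and Twsg1 (0.25). In the list of latent TGF-beta binding and activation, 2 of 8 rose, Thbs1 (1.32), which encodes an activator of latent TGF-beta, and Ltbp3 (0.74), which encodes a latent TGF-beta binding protein. Of 10 extracellular modulators 4 rose. They were the proteoglycan gene Dcn (3.04), the protease gene Htra1 (1.47), the TGF-beta trap gene Vasn (0.83) and the BMP antagonist gene Nbl1 (0.32). The call of Nbl1 was lost with either scaling of the arrays and without OPN replicate 2, 3 or 4 or PT replicate 1 or 2 (adjusted p from 0.0823 to 0.122 where 1 array was left out). The sclerostin gene Sost lay at -0.01. Of 3 genes of the procollagen C-proteinases, which also cleave chordin, the enhancer gene Pcolce (3.03) and Bmp1 (2.13) rose, and Tll1 lay at 0.02.

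Inside the cell, 1 of 17 SMAD regulators rose, the ubiquitin ligase gene Smurf2 (0.35), whose call was lost without any 1 OPN array or without PT replicate 2 or 4 (adjusted p from 0.0554 to 0.0986). Of 9 other ligands and co-receptors 0 were called. Among 19 TGF-beta response genes 13 rose, with a median of 0.74, and the smallest p-values were those of Col1a2 (2.47), Col1a1 (1.87), Col3a1 (1.95) and Postn (1.47). These 4 are matrix genes that also stand on the osteoblast or stromal marker lists. Among 15 BMP response genes 6 rose, with a median of 0.24. The smallest p-values were those of the mineralisation enzyme gene Alpl (2.14) and the transcription factor genes Runx2 (1.13), Dlx5 (0.81) and Tcf7 (0.41). Of the 6, 3 are also osteoblast markers. Off the osteoblast and stromal lists, 20 of 72 pathway genes rose. All 12 osteoblast markers rose on these arrays, and their part in these counts was not tested.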

How the data were processed

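The deposited table holds 1 linear intensity per probe set and array for 6 arrays. The tools that produced it, per the submitters' processing notes, were Expression Console of Affymetrix and PLIER. The sources used here give neither their versions nor any background correction, scaling or filter. Each column belongs to 1 labelled sample.

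Rows were named by the platform annotation (15310 of 29215 rows with 1 symbol). All 59 member genes matched GRCr8 by Entrez identifier, and 1 row with several symbols was left out. Members, lists and tests were chosen with earlier results of these data known. Values were transformed as log2(intensity + 16) and fitted with limma 3.58.1 (lmFit, eBayes; R 4.3.3), with a term for the coating, no filter and Benjamini-Hochberg adjustment over 29215 rows. Genes named with every array were the called members and the Id genes. Others were named at an adjusted p below 0.10, for the smallest p among the called genes of each list (up to 4), or after their values were seen. On simulated data of 29215 rows the fit recovered 59.7% of 67 rows shifted by 0.5 (log2), 100% at shifts of 1 and 2, and made 19 false calls. The simulated noise was normal and independent between rows, and far fewer rows were shifted than were called in the data. The simulation thus does not measure the error rate of the calls reported here. Alternatives were other offsets, a filter on dim rows, 2 scalings, another variance model, a block on the replicate number and leaving out each array. Promoter sequences are RefSeq's, build GRCr8.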

Additional observations from a re-analysis of the deposited data

How the results depend on the processing

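Each choice was changed on its own. The 9 genes Fstl1, Grem1, Bmp3, Bmpr2, Bambi, Bmpr1a, Acvr1, Bmp2 and Smad6 kept their calls under every alternative that tested them. For Grem1, Bmp3, Bmpr1a and Acvr1 the filter on dim rows is no separate support. Their PT means (112, 53.4, 92.6 and 121) lay below its limit of 134, so they passed it only through their OPN arrays. The count of members called higher (19, the same as called in either direction) ranged from 12 to 17 with 1 array left out (12 to 18 in either direction), and was 15 with equal array medians, 18 with quantile normalisation, 20 with dim rows left out, 21 with an offset of 64 and 22 with a trended, robust variance. Members called lower numbered 1 with equal array medians or quantile normalisation (Bmp2k), with an offset of 64 or dim rows left out (Gdf15), 2 with a trended, robust variance, and 0 to 1 with 1 array left out. The median of the members was 0.08 with equal array medians. Over all rows, higher calls ranged from 928 to 1357 with 1 array left out. Lower calls ranged from 95 to 181 there, and were 551 with equal array medians, 745 with quantile normalisation, 382 with an offset of 64, 423 with dim rows left out and 516 with a trended, robust variance, so that 4.08% of rows were higher and 1.89% lower with equal medians. The sign of Id1 turned with equal medians and with quantile normalisation (-0.05 each), with the replicate block (-0.01) and without OPN replicate 3 or PT replicate 4 (-0.0023 and -0.0015), and was at most 0.04 with 1 array left out. The causes were not tested.

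Numbers 2 and 4 were given to a replicate of each coating, but deviations from the group means correlated at -0.0817 and 0.0681 within these pairs, against -0.108 to 0.181 between arrays of different numbers. These values and the labels do not establish a pairing. With the replicate number as a block, which leaves 1 residual degree of freedom per row before moderation, 9 members were called, all higher and all among the 19. Eng, Smad5 and Id3 lost their calls under this setting alone (adjusted p = 0.0649, 0.058 and 0.0909 in limma's test). Tgfbr1, Smad1, Smad4, Bmp5, Bmp6, Tgfb1 and Tgfb1i1 lost theirs here and under other settings. Over all rows the block gave 618 higher and 48 lower calls. No member has more than 1 row, so averaging the rows of a gene could not give another value. Without detection calls, rows near background cannot be separated from low expression.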
